A study of Mus musculus with 18 samples.

Results

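The H3K27me3 comparison of G9a knockout with Cre control took in every region on chromosomes 1 to 19 of the list that the authors deposited for this mark. That was 502009 of the 504986 regions listed for H3K27me3, and of 2377384 regions in the 4 lists of the series. The material was a cardiomyocyte-enriched population of cells from C57BL/6J mice, profiled by chromatin immunoprecipitation and sequencing (ChIP-seq). Knockout mice (KO) had the genotype G9a flox/flox; alphaMHC-MerCreMer +/-, and control mice (Cre) had alphaMHC-MerCreMer +/- alone, so both groups carried the recombinase transgene. The alphaMHC promoter (Myh6) drives that transgene in heart muscle cells, and other cells left in the population keep an intact G9a gene. MerCreMer is a Cre recombinase that tamoxifen switches on, and neither the age of the mice nor a treatment is given in the sources used here. Each group had 2 H3K27me3 libraries, which the series text calls biological replicates. The 2 input libraries were not analysed here. The series text names H3K27me2 in 1 place, while H3K27me3 stands in its title and on the sample labels, and that name is kept here.

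H3K27me3 is trimethylation of lysine 27 on histone H3, written by Polycomb repressive complex 2 (PRC2) and found on genes held silent. Its densest domains in most tissues cover CpG-rich promoters of developmental transcription factors such as the homeobox clusters, while genes a cell transcribes usually carry little of it. G9a, encoded by Ehmt2, adds methyl groups to lysine 9 of the same histone tail and gives H3K9me2. In mixed cells, a change in the share of cells that carry the mark and a change in the amount of mark per cell cannot be told apart.

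The promoters of 4 genes on which the results below turn show the contrast in sequence between CpG-rich starts with more listed H3K27me3 in KO and CpG-poor starts with less. They were chosen with their values known. Each is 250 bases before to 50 bases after the gene start, from RefSeq (GRCm38.p6), read 5′ to 3′ on the gene's strand, with every CG dinucleotide in capitals. Hcn4 lies on the plus strand at chr9:58822699-58822998, Irs2 on the minus strand at chr8:11008880-11009179, Lyz2 on the minus strand at chr10:117282223-117282522 and Ptprc on the minus strand at chr1:138175256-138175555.
Hcn4: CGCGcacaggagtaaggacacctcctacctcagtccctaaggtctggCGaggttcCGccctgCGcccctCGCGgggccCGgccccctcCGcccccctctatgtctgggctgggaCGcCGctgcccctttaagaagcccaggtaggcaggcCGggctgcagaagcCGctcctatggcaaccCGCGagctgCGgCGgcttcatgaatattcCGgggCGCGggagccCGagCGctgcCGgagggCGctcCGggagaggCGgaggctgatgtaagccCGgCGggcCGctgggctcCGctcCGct
Irs2: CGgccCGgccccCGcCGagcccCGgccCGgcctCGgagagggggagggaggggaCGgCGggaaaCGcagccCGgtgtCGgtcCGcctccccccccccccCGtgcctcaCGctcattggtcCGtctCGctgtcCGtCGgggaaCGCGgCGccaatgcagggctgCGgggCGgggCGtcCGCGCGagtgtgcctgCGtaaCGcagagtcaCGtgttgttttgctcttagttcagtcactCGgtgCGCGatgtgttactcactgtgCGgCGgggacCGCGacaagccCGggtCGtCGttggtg
Lyz2: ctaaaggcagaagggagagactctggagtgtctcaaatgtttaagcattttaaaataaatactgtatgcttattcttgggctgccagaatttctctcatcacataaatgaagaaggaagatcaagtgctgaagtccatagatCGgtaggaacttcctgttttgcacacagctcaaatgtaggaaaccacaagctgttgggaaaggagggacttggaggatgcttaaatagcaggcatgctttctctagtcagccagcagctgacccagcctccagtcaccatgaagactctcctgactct
Ptprc: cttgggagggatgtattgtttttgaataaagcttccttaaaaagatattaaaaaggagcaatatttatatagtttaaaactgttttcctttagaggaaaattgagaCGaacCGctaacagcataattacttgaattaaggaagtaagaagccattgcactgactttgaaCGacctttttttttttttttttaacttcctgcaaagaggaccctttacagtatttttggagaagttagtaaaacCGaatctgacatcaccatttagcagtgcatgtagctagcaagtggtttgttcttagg
All 300 bases of each lie inside a listed H3K27me3 region. The Hcn4 promoter holds 31 CG dinucleotides and that of Irs2 holds 41, against 1 at Lyz2 and 4 at Ptprc. CG reads the same on both strands and was found in 95.6% of 20085 promoters of protein-coding genes, while 37.1% held 20 or more. The region over the Hcn4 promoter (chr9:58820201-58824900) had values of 1660 and 1847 in KO, against 1147 and 881 in Cre. The region over the Lyz2 promoter (chr10:117281201-117283850) had 120 and 184 in KO, against 756 and 915 in Cre. The Gja5 promoter breaks the contrast, with 7 CG dinucleotides and a region of higher values in KO (305 and 350, against 245 and 40 in Cre).

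Listed H3K27me3 signal was lower in KO over most of the listed genome. The 502009 regions summed to 90892225 and 90941566 in KO libraries, against 114287041 and 111392747 in Cre libraries. The change in KO was -19.4% (log2 ratio -0.31), and the groups did not overlap, though the exact two-sided permutation p of 0.333 is the smallest that 2 libraries against 2 allow. Median region values were 105 and 115 in KO, against 134 and 132 in Cre. Values of 0 were listed for 5561 and 2241 regions in KO, against 1662 and 1530 in Cre. Values within a genotype correlated across regions with Pearson's r of 0.59 for the KO pair and 0.71 for the Cre pair (log2 scale; regions are not independent replicates). Of all regions, 63.2% had a log2 ratio below 0. Both KO values lay below both Cre values in 44.5%, above them in 22.6%, and the groups overlapped in 32.9%. Scaling the 4 libraries to the same median shifted log2 ratios up by about 0.28 and left 62.7% of regions lower in KO. It brought the non-overlapping shares to 30.6% lower and 29.5% higher. Few listed ratios lay near 0: the smallest absolute log2 ratio was 0.10, and nearly all exceeded 0.41. A shift of that size could therefore turn few regions, so the steady share lower says little about scaling. The order of the values, Cre before KO, is read from the name of the list and is not stated beside them, and every direction given here rests on it. They are whole numbers of unstated scale and unknown depth, and sequence outside listed regions has no value.

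Long H3K27me3 regions were lower in KO far more often than short ones. Regions lower in KO had a median length of 800 bp, against 700 bp for regions higher in KO, and 9.90% of the lower ones reached 2000 bp, against 3.14% of the higher ones. The share lower in KO was 57.4% under 500 bp, 58.8% from 500 to 1000 bp, 69.7% from 1000 to 2000 bp, 83.8% from 2000 to 5000 bp and 95.1% of the 2176 regions of 5000 bp or more. Scaled to the same median, the last class still stood at 89.8%. In the longest class the median signal per kb was 293 and 251 in KO libraries, against 395 and 389 in Cre libraries. Under 500 bp it was 107 and 126 in KO, against 140 and 142 in Cre. Longer regions thus carried denser mark in all 4 libraries and a wider gap per kb between the genotypes. The ratio of the typical listed region did not grow with length. Its median log2 was -0.76 under 500 bp and -0.54 at 5000 bp or more. Short regions were listed only with larger ratios, so these medians are not on equal terms. Nearly all absolute log2 ratios exceeded 0.66 under 500 bp, and 0.27 at 5000 bp or more. The log2 ratio of summed signal was -0.17 and -0.47 in these 2 classes. The pattern held within each distance class: among regions of 5000 bp or more the share lower was 93.3% inside genes and 98.9% of the 87 regions over 200 kb from a gene. The lists of the other targets showed the same kind of slant in their own directions. Of H3K9me2 regions, 39.7% were lower in KO, and of the 80 that reached 5000 bp, 2.5% were. For G9a these shares were 61.6% of all regions and 98.9% of 95 long ones, and for Mef2c 61.7% and 96.4% of 28, so the link of length with a list's main direction was not particular to H3K27me3.

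**Figure D1:**
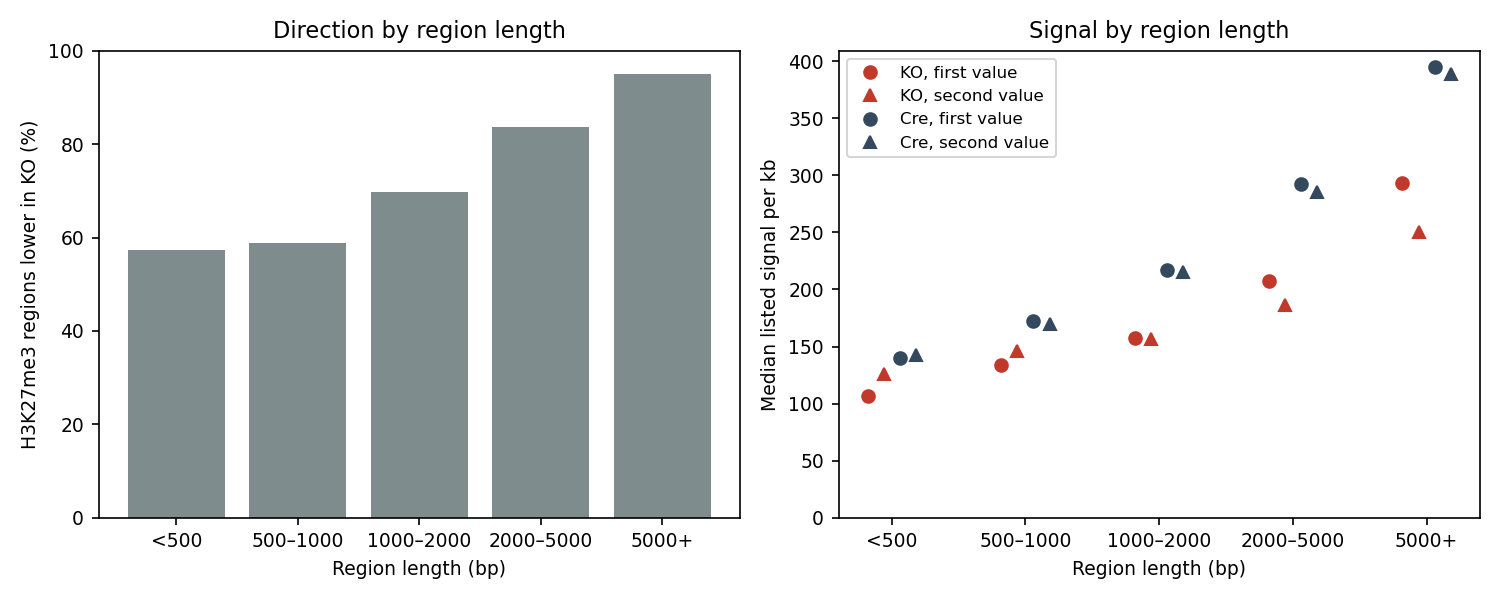
Left, the share of listed H3K27me3 regions lower in KO (percent) in 5 classes of region length (bp). Right, the median listed signal per kb in each of the 4 libraries in the same classes, KO in red and Cre in dark blue. The share climbs to 95.1% at 5000 bp and over, where the KO libraries stand at 293 and 251 per kb, below the Cre libraries at 395 and 389.

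Distance from genes and density of mark moved the direction less than length did. Regions lower in KO had a median distance to the nearest protein-coding gene of 17498.5 bp, against 13458 bp for regions higher in KO. The share lower was 61.8% inside genes and 66.0% over 200 kb from any, and the log2 ratio of the summed signal was -0.27 inside genes and -0.42 in the farthest class. Counting every annotated gene, noncoding ones included, the medians were 2314 bp for lower and 1499 bp for higher regions. Signal per kb, as the mean of the 4 libraries, differed little by direction, with a median of 153 in regions lower and 158 in regions higher in KO. Over 10 classes of equal size by that density, the share lower was 69.5% in the sparsest and 59.5% in the densest. The log2 ratio of summed signal was -0.60 in the sparsest and -0.20 in the densest. Sparse regions were listed only with larger ratios: the smallest absolute log2 ratio was 0.49 in the sparsest class and 0.10 in the densest. The sizes of ratio in these classes are therefore not on equal terms. In the densest class, 54.0% were lower after scaling to the same median. Density and length are linked, so both were read together. Within the class of 500 to 1000 bp, 68.6% of the sparsest regions were lower, against 48.1% of the densest, and within 2000 to 5000 bp these shares were 88.5% and 76.5%. Close neighbours in the list often differed in direction. Of 165369 pairs of neighbouring regions less than 500 bp apart, 34.7% had the same direction. Of 159754 pairs 500 to 2000 bp apart, 58.4% did, beside 53.4% of the pairs 10000 bp or more apart. How adjoining stretches were joined into regions or split is not stated, and its part in these shares was not tested.

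Over large stretches the lower signal, in sums as deposited, was near general. Of 2379 bins of 1 Mb with at least 50 regions, both KO sums lay below both Cre sums in 92.1%, and above them in 18 bins (0.757%). The median log2 ratio of a bin was -0.34 (quartiles -0.44 and -0.23), close to the -0.31 of all regions summed. Bin sums were not scaled, so these counts include the lower total in KO. Chromosome 4 held 5 of those 18 bins among its 154, and the 50 bins within 25 Mb of Ehmt2 on chromosome 17 held 4. The lowest bin of all, chr7:11000001-12000000, holds Zscan4 genes and vomeronasal receptors, and its regions summed to 8638 and 11694 in KO, against 28990 and 21119 in Cre (log2 ratio -1.30). Next came chr17:13000001-14000000, around the t-complex genes Tcp10c and Smok2a, with 52884 and 50072 in KO, against 90080 and 106041 in Cre (log2 ratio -0.93). Among the bins higher in KO, chr17:30000001-31000000 holds Btbd9, Glo1 and Dnah8 and summed to 94560 and 92477 in KO, against 72572 and 73610 in Cre (log2 ratio 0.36).

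Chromosome 17, which carries Ehmt2, held 5 of the 6 regions that passed the adjusted test, and 19246 of all 502009 regions. Under limma's test over all 502009 regions with Benjamini-Hochberg adjustment, 6 regions passed an adjusted p of 0.05 (0.00120% of those tested), 5 lower and 1 higher in KO. The region over Gm8909 (chr17:36153801-36174050, 20250 bp) had 2567 and 2342 in KO, against 13660 and 10919 in Cre. Its log2 change in limma was -2.32 with a standard error of 0.14 and an adjusted p of 0.000383. A second region 421 bp from H2-T3, a class I histocompatibility gene (chr17:36176651-36185150), had 935 and 979 in KO, against 4831 and 4011 in Cre (limma adjusted p 0.00800). The region that directly follows it and overlaps H2-T3 itself (chr17:36185151-36192950) was higher in KO. It had 6832 and 6455, against 3035 and 3569 in Cre, and did not pass (limma adjusted p 0.286). In the same cluster, a region 17430 bp from the pseudogene H2-T-ps (chr17:36076101-36091600) was the 1 higher region that passed. It had 13431 and 11976 in KO, against 5614 and 5179 in Cre (limma log2 change 1.23, standard error 0.11, adjusted p 0.00800). Farther off on the chromosome, the regions near the sperm motility kinase gene Smok2a (chr17:13177151-13196100) and near Tcp10c (chr17:13327751-13348850) had limma log2 changes of -1.44 and -1.36 (adjusted p 0.0250 for each). Smok2a had 3245 and 3147 in KO, against 7628 and 9846 in Cre. The only one of the 6 on another chromosome lies over Gm5373 (chr8:71817551-71843650), the longest listed region at 26100 bp, with 7081 and 7119 in KO, against 14804 and 16440 in Cre (limma adjusted p 0.00800). In each of the 6 the groups stood well apart, but the test picked them for that, so it is no added finding. Leaving out all of chromosome 17 left 1 region past the threshold, and leaving out single libraries left between 0 and 2. Because the authors listed regions that differ, such p-values come out too small, and the spread they measure is that of 2 libraries a group.

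The other targets mostly had the same direction as H3K27me3 at these places. At the 10 regions with the greatest difference of means, 5 in each direction, 9 lay on chromosome 17, which holds 19246 of all 502009 regions. H3K9me2, G9a and Mef2c values covering them had the same direction as H3K27me3 wherever they were listed, and only H3K9me2 at Gm8909 had no listed value. At the higher H2-T-ps region, for example, the log2 ratio was 1.75 for H3K9me2, 1.26 for G9a and 1.41 for Mef2c, beside 1.23 for H3K27me3. Among the 6 regions past the threshold, 1 differed: at the lower region near H2-T3, H3K9me2 had a log2 ratio of 0.42, beside -2.21 for H3K27me3. Of the 100 regions with the greatest difference of means, 29 were on chromosome 17 and 26 lay within 25 Mb of Ehmt2, where 2.11% of all regions lie. The H2-T, Smok2 and Tcp10 genes belong to families of similar copies, so reads may be shared between copies. What part the flanking chromosome, copy number or read sharing had in these values was not tested, since the input libraries were not analysed here. Next to Ehmt2 itself 4 regions were listed, from its last bases into the neighbour Slc44a4. Both KO values lay below both Cre values in all 4, and in 44.5% of all regions. The nearest within Slc44a4, chr17:34914151-34915050, had 71 and 38 in KO, against 216 and 171 in Cre (log2 ratio -1.81, limma adjusted p 0.322). No H3K27me3 region was listed at the start of Ehmt2.

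**Figure D2:**
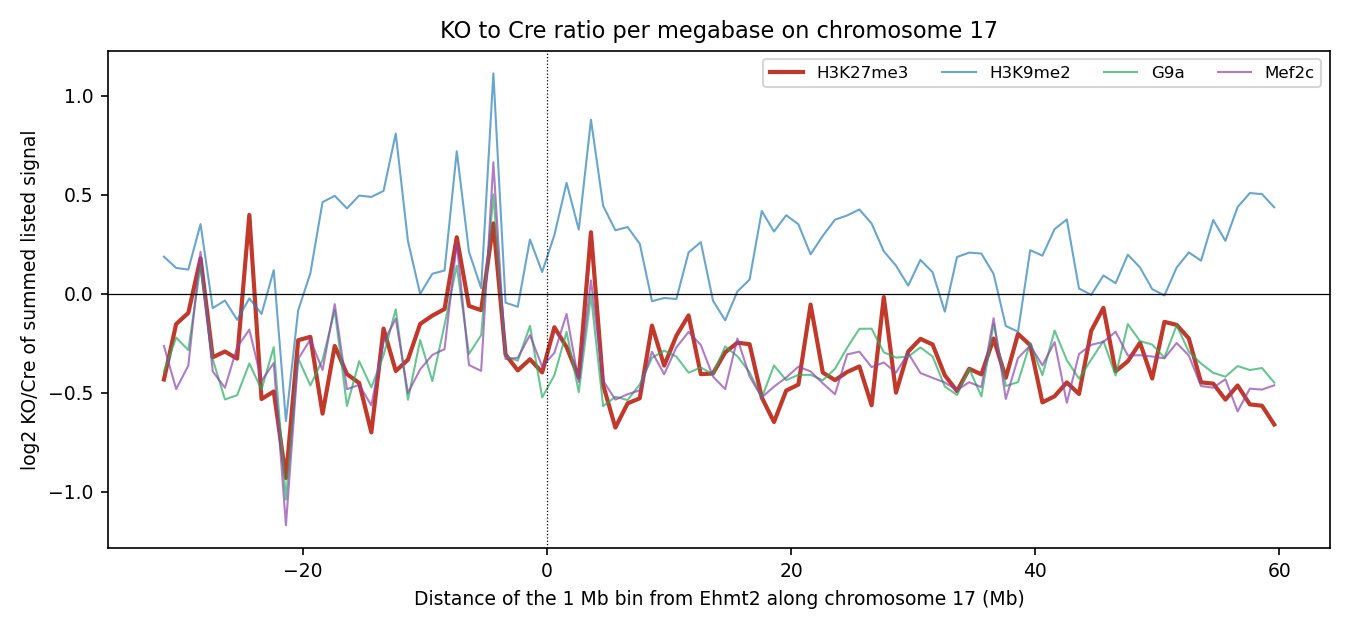
The log2 ratio of KO to Cre of summed listed signal in 1 Mb bins along chromosome 17, against distance from Ehmt2 (Mb), for H3K27me3 (thick red line) and the other targets. Sums are as deposited, without scaling. H3K27me3 stands below 0 in most bins, dips to -0.93 at the bin of Tcp10c and Smok2a together with the other 3 targets, and is above 0 at the bin of Btbd9 (0.36), where H3K9me2 reaches 1.11.

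Among regions near gene starts, the greatest ratios named genes of varied function on the lower side. The rule took separated regions of at least 1000 bp and a mean of at least 100 that touched a gene window, which 9360 regions met, 6306 of them lower and 3054 higher in KO, and kept the 10 greatest ratios in each direction, ranked with a pseudocount of 10 (the ratios printed use 1). A gene window is 2 kb either side of the gene start, or of both ends of the gene where the start is not in the promoter table. None of the 20 regions passed limma's test (Benjamini-Hochberg adjusted p 0.322 for each). Ms4a5, of the membrane-spanning 4-domain family (chr19:11281851-11283050), had 0 and 37 in KO, against 363 and 219 in Cre. Dcpp3, a salivary secreted protein gene (chr17:23915651-23917700), had 0 and 107 in KO, against 414 and 570 in Cre. Cyyr1 (chr16:85548701-85549850) had 50 and 31 in KO, against 364 and 375 in Cre, a log2 ratio of -3.16. Racgap1, a GTPase activator of cell division (chr15:99650251-99651550), had 34 and 52 in KO, against 335 and 296 in Cre. Lyz2, the lysozyme of macrophages and related cells shown above, had a log2 ratio of -2.45 and was the longest of the lower regions at 2650 bp. The other 5 were Pcare, a photoreceptor cilium gene, the vomeronasal receptor Vmn1r158, the protease inhibitor Serpinb2, the teneurin Tenm4 and the peptidase Naalad2, with log2 ratios between -2.82 and -2.58.

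The higher side was as varied, and 3 of its 10 genes, given first, are known from striated muscle. They were grouped after their values were seen, and the share of such genes among all regions meeting the rule was not counted. Fhod3, a formin that builds heart sarcomeres (chr18:24709301-24710950), had 459 and 696 in KO, against 101 and 58 in Cre, a log2 ratio of 2.85. Speg, a kinase of striated muscle (chr1:75387451-75389750), had 693 and 684 in KO, against 223 and 88 in Cre. Chrnd, the delta subunit of the muscle acetylcholine receptor (chr1:87201701-87202700), had 274 and 166 in KO, against 54 and 27 in Cre. Separation of the groups was part of the rule, so it is no finding for these genes. Irs2, an adaptor of the insulin receptor whose promoter is shown above (chr8:11008351-11010050), had 366 and 585 in KO, against 85 and 99 in Cre. Cacnb4, a calcium channel beta subunit (chr2:52671951-52673950), had 556 and 365 in KO, against 77 and 78 in Cre. Btbd9 (chr17:30583151-30585100) had 609 and 709 in KO, against 142 and 118 in Cre, and lies at -4.32 Mb from Ehmt2, in the bin described above. The remaining 4 were Trim43b, the phosphatase Ppef2, the transcription factor Sox6 and the helicase Ddx47, with log2 ratios between 2.25 and 2.69.

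Over gene windows as a whole, 10955 of 20665 protein-coding genes (53.0%) touched listed H3K27me3 regions. A window's value is the sum of its regions' values, shared by overlapped length. Both KO values lay below both Cre values in 38.7% of windows and above in 19.9%, 61.4% had a log2 ratio below 0, and the median log2 ratio was -0.19. Scaled to the same median, that median was 0.09. In limma's fit over all windows 13.0% were lower and 5.35% higher at an unadjusted p under 0.05, 18.4% in all. The window of Gm8909 was the only one past the adjusted threshold (0.00913%), with an adjusted p of 0.0148. Direction by this fit hangs on scaling: 1426 windows were lower and 586 higher as deposited, against 445 lower and 1490 higher with the same median. Over regions, 12.3% were lower and 3.0% higher at an unadjusted p under 0.05 (15.3% in all), 61603 lower and 15045 higher, against 25020 and 38931 with the same median. Each Cre library weighs on the split. Without the first, 20245 regions were lower and 19871 higher, and 522 windows were lower and 767 higher. Without the second, 18703 regions were lower and 14852 higher, and 677 windows were lower and 348 higher.

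Genes of cardiac ion channels and cell junctions carried more listed H3K27me3 in KO. Of 22 genes on this list 17 had a listed value, and both KO values lay above both Cre values in 13 of them and below in 1, read against 19.9% and 38.7% of all windows. At an unadjusted p under 0.05, 9 were higher and 0 lower, where 5.35% and 13.0% of all windows were, and no member passed the adjusted threshold in limma. The median log2 ratio was 0.85, against -0.19 over all windows. Hcn4, the main pacemaker channel of the sinus node, had a window value of 1396 and 1553 in KO, against 964 and 741 in Cre (limma log2 change 0.80, standard error 0.22, adjusted p 0.224). Hcn2, a second pacemaker channel, had 1241 and 1059 in KO, against 683 and 218 in Cre. Kcnd3, a channel of the transient outward potassium current, had 804 and 852 in KO, against 532 and 433 in Cre. Kcnh2, of the rapid delayed rectifier current, had 281 and 189 in KO, against 119 and 14 in Cre, the greatest ratio on the list at 1.81. Among junction genes, Dsp, which encodes desmoplakin, had 885 and 845 in KO, against 531 and 148 in Cre. Gja5, the connexin of atrial and conduction tissue, had 495 and 524 in KO, against 304 and 245 in Cre. Kcna5, an atrial potassium channel with the highest window mean on the list, went the other way with 1278 and 1040 in KO, against 1403 and 1442 in Cre. Kcnj5, Kcnd2 and Cacna1c had overlapping groups, and Kcnj2, Kcnip2, Gja1, Gjc1 and Jup had no listed value.

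The second Cre value sat low at these genes. It was the lowest of the 4 in 13 of the 17 windows (76.5%), against 26.3% of all windows. The windows of the list summed to 10695 and 10269 in KO, against 7715 and 5099 in Cre. Without the second Cre value the list's median log2 ratio was 0.53, and without the first it was 1.30. In 13 of the 17 the ratio stayed positive whichever library was left out. Scaled to the same median, 14 were separated higher and 0 lower.

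**Figure D3:**
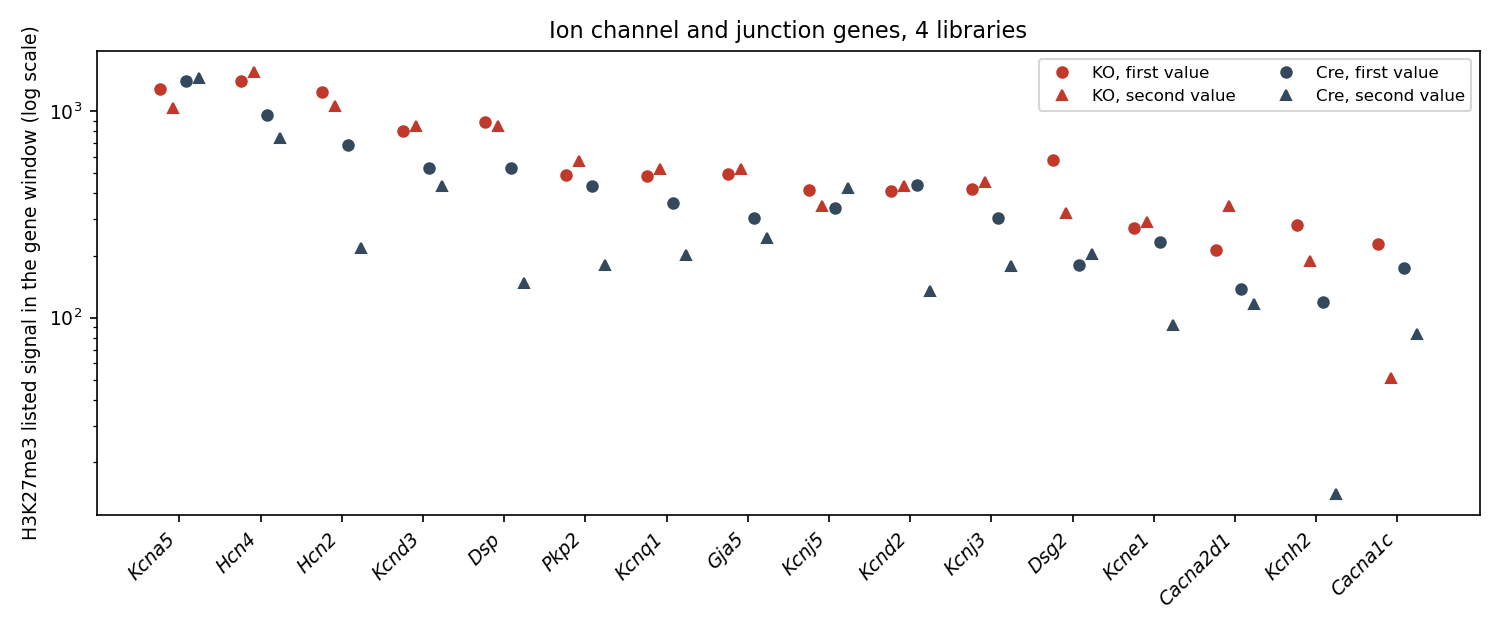
Listed H3K27me3 signal in the gene window (log scale) for 16 of the 17 ion channel and junction genes with a listed value, ordered by mean, with 2 KO libraries in red and 2 Cre libraries in dark blue. Both KO points stand above both Cre points in 12 genes, and the second Cre value is the lowest in 12.

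Genes of the contractile apparatus leaned the same way at much lower levels. Of 22 sarcomere genes 10 had a listed value, with 5 separated higher (50% of those listed, against 19.9% of all windows), 0 separated lower (38.7% of all windows) and a median log2 ratio of 0.77. The second Cre value was the lowest of the 4 in 6 of the 10 and the first Cre value in the other 4. Tcap, the titin cap at the Z-disc, had 163 and 168 in KO, against 39.2 and 82.9 in Cre. Actn2, the Z-disc actinin, had 266 and 186 in KO, against 146 and 135 in Cre. Myl2, the ventricular light chain, had 120 and 315 in KO, against 13.0 and 154 in Cre, so its groups overlapped. Myh6, whose promoter drives the transgene, had the highest window mean of the list and also overlapped, with 1019 and 2404 in KO, against 2327 and 833 in Cre. The list's windows summed to 3050 and 4786 in KO, against 4004 and 2332 in Cre, which overlap. Without the second KO value its median was 0.45. Of the 10 cardiomyocyte markers only Myh6, Actn2, Myl2 and Mybpc3 had a listed value, and Tnnt2, Tnni3, Actc1, Ryr2, Myl3 and Ttn had none, a listed share of 40.0% against 53.0% of all genes. Calcium handling genes were listed in 6 of 19, with 2 separated higher (33.3%) and 1 lower (16.7%), against 19.9% and 38.7% of all windows. Their median was 0.19, which was 0.07 without the second Cre value and 0.42 without the first. Fkbp1b, a ryanodine receptor binding protein, had 854 and 728 in KO, against 659 and 551 in Cre, while Itpr2, a calcium release channel, had 113 and 191 in KO, against 246 and 345 in Cre. Genes of fatty acid and mitochondrial metabolism were listed in 3 of 22. Among them Ppara, the receptor that turns on fatty acid oxidation genes, had 283 and 279 in KO, against 150 and 126 in Cre, and Fabp3, the fatty acid binding protein of heart, had 401 and 326 in KO, against 223 and 178 in Cre.

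Transcription factors of heart development were mixed. Of 20 on the list 16 had a listed value, 6 separated higher (37.5%, against 19.9% of all windows) and 3 lower (18.8%, against 38.7%), with a median log2 ratio of 0.26. The second Cre value was the lowest of the 4 in 10 of the 16 (62.5%, against 26.3% of all windows). Tbx5, of the atria and conduction system, had 2259 and 2178 in KO, against 1881 and 1521 in Cre. Tbx20 had 192 and 246 in KO, against 132 and 89.0 in Cre, and Irx5, a homeobox factor of the repolarization gradient, had 3816 and 3870 in KO, against 3327 and 2758 in Cre. Gata4 stood on the other side, with 79.0 and 69.0 in KO, against 184 and 144 in Cre. Tbx2, a repressor of chamber genes, had 2932 and 2885 in KO, against 4243 and 3062 in Cre, and its log2 ratio of -0.33 became -0.05 with overlapping groups on the same-median scale. Nkx2-5 had 1209 and 765 in KO, against 797 and 210 in Cre, so its groups overlapped. Leaving out single libraries moved the list's median, to 0.02 with the first Cre library alone, to 0.43 with the second Cre library alone and to 0.15 with the second KO library alone. Of 18 genes tied to the fetal program and hypertrophy, 10 had a value, 2 separated higher (20%) and 3 lower (30%). These shares were near the 19.9% and 38.7% of all windows. Nppb, the B-type natriuretic peptide, had 133 and 165 in KO, against 51.0 and 72.0 in Cre, whereas Rcan1, a calcineurin inhibitor, had 32.0 and 38.0 in KO, against 72.0 and 73.0 in Cre. Myh7 overlapped, and Nppa had no listed value. The list of 21 antihypertrophic genes had 6 with a value, 1 separated higher (16.7%) and 2 lower (33.3%), again near the shares of all windows. Trim63, a muscle ubiquitin ligase, had 247 and 183 in KO, against 50 and 87 in Cre, and Rgs4, a G protein regulator, had 1228 and 1022 in KO, against 1576 and 1430 in Cre.

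Marker genes of other heart cells differed from list to list. Immune markers were listed in 5 of 6, with 3 separated lower, 0 higher and a median log2 ratio of -0.71. Over all windows 38.7% were separated lower and 19.9% higher, the background for each marker list here. Adgre1, the macrophage F4/80 antigen, had 676 and 877 in KO, against 1294 and 1248 in Cre, and Ptprc, the pan-leukocyte CD45 gene, had 184 and 308 in KO, against 403 and 489 in Cre. The immune windows summed to 2516 and 2492 in KO, against 3750 and 3897 in Cre. Endothelial markers were listed in 5 of 6, with 3 separated lower, 0 higher and a median of -0.32. Kdr, a receptor of vascular growth factor, had 828 and 786 in KO, against 1027 and 987 in Cre, and the list summed to 3830 and 3478 in KO, against 4374 and 4136 in Cre. On the same-median scale the endothelial median was -0.04, with 1 separated lower and 1 higher, while the 3 immune genes stayed lower and Spi1, a myeloid transcription factor, was separated higher. Fibroblast markers were all listed with a median of -0.06, 1 separated lower and 0 higher, and summed to 10097 and 9891 in KO, against 10361 and 9674 in Cre. On the same-median scale their median was 0.21, with 0 separated lower and 3 higher. Smooth muscle and pericyte markers split. The contractile genes Cnn1, Myh11, Acta2 and Tagln were higher, with Myh11 at 409 and 769 in KO, against 250 and 169 in Cre. The pericyte genes Pdgfrb and Rgs5 were lower, with Pdgfrb at 899 and 1074 in KO, against 1714 and 1551 in Cre. That list summed to 4418 and 5053 in KO, against 5234 and 4106 in Cre, and its median of 0.63 was 0.31 without the second Cre value and 1.08 without the first. Neuronal markers had a median of -0.04 (0.26 without the first Cre value), with Syt1, a synaptic vesicle protein gene, separated higher at 2065 and 2135 in KO, against 1702 and 1132 in Cre. What part a different mix of cells had in the heart gene values was not tested.

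The classical Polycomb targets, by contrast, had dense H3K27me3 in every library and small ratios. All 39 homeobox cluster genes and all 81 other developmental transcription factors had listed values, at a median of 922 and 933 per kb of covered sequence, against 200 per kb over all windows. Their median log2 ratios were -0.07 and -0.05. Dense regions were also listed at smaller ratios than sparse ones, as given above. Among the homeobox genes 7 were separated lower and 3 higher, and among the other factors 13 lower and 9 higher, both below the 38.7% and 19.9% of all windows. Hoxb9 had 8315 and 8093 in KO, against 8834 and 6913 in Cre, and Hoxa10 had 8102 and 6011 in KO, against 9216 and 7333 in Cre. Pax2, of kidney and ear, had 8300 and 7650 in KO, against 8413 and 7373 in Cre, and Pax6, of eye and brain, had 6940 and 6364 in KO, against 7922 and 6979 in Cre. Gata2 had 7040 and 7128 in KO, against 8344 and 7731 in Cre, and Hmx2 overlapped. Of the clusters, Hoxb was lowest with a median of -0.19 and 4 of 10 genes separated lower, and Hoxd was highest with 0.01. On the same-median scale the medians were 0.21 for homeobox genes and 0.24 for the other factors, 0 members of either list were separated lower, and 10 homeobox genes and 42 other factors were separated higher, so the sign here hangs on scaling. Without the first Cre value the medians were 0.06 and 0.12, and without the second KO value 0.01 and 0.03. Irx3, a homeobox factor of the ventricular conduction system, had 927 and 782 in KO, against 363 and 321 in Cre (log2 ratio 1.32, limma adjusted p 0.224). It was singled out after its values were seen.

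**Figure D4:**
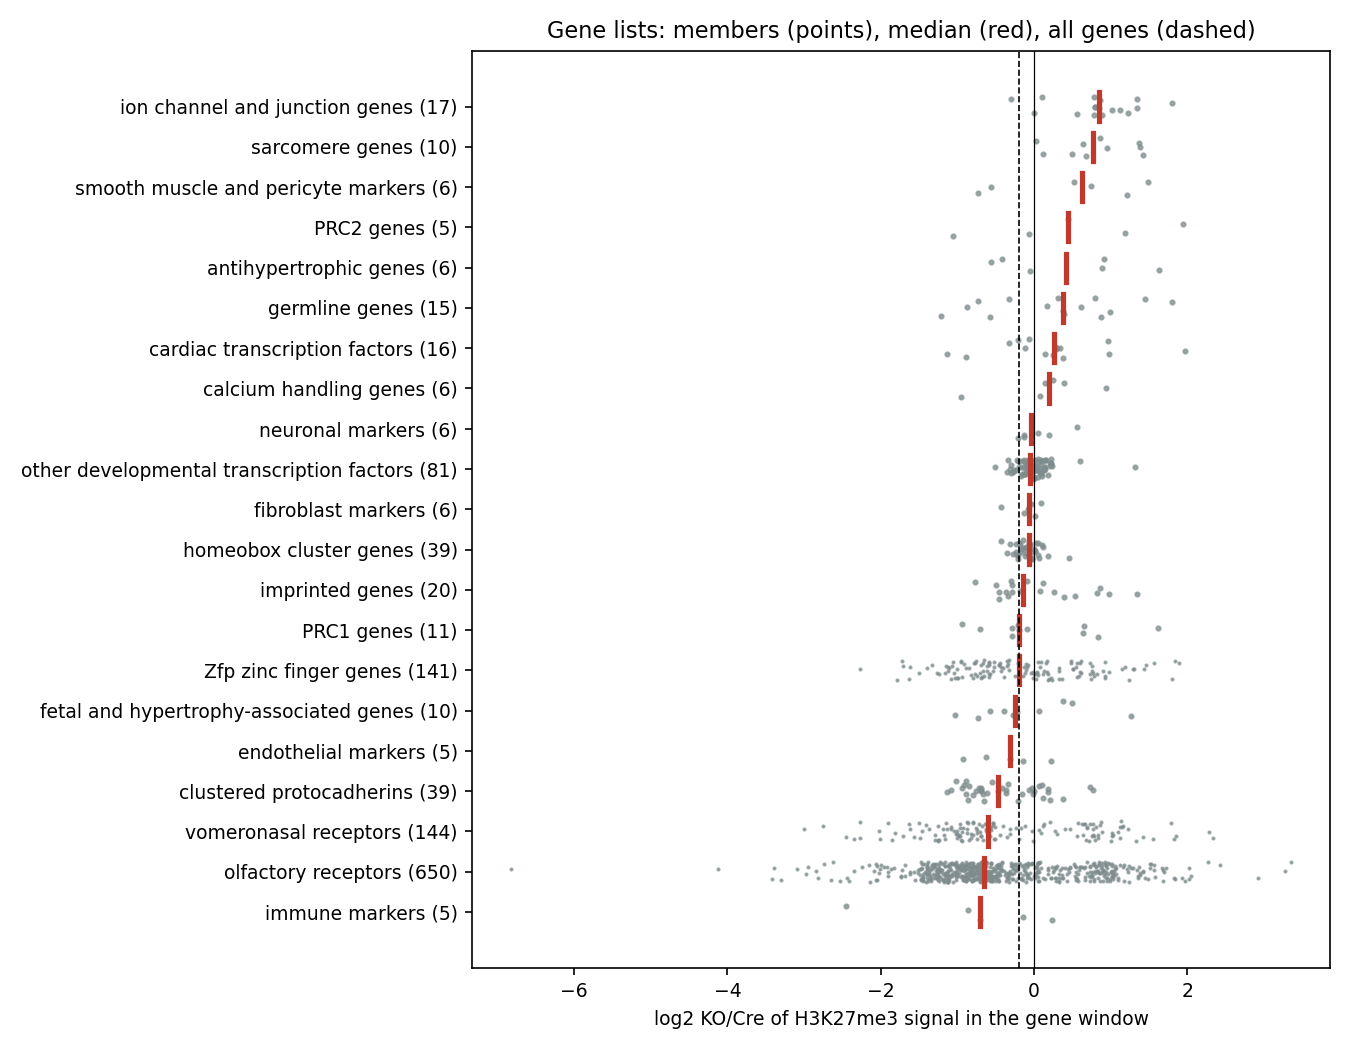
The log2 ratio of KO to Cre of H3K27me3 signal in gene windows, for lists with at least 5 listed members (number in brackets). Points are genes, red bars list medians, and the dashed line is the median over all genes at -0.19. Ion channel and junction genes lie highest with a median of 0.85, the developmental factors crowd near 0, and immune markers have the lowest median at -0.71.

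Genes of the Polycomb and H3K9 machinery carried little of the mark and were mixed. Of 11 PRC2 genes 5 had a value. Phf19, an accessory subunit that guides PRC2, had 1112 and 1238 in KO, against 766 and 955 in Cre. Ezh1, a catalytic subunit, had 92.3 and 164 in KO, against 238 and 297 in Cre. Epop, Phf1 and Aebp2 had overlapping groups, and no region was listed at the other 6. Of 16 PRC1 genes 11 had a value, 3 separated higher (27.3%) and 1 lower (9.09%). Over all windows 19.9% were separated higher and 38.7% lower. Phc2, a polyhomeotic subunit, had 1184 and 1254 in KO, against 756 and 796 in Cre, and the chromobox genes Cbx2 and Cbx8 overlapped. Kdm6b, an H3K27 demethylase, was the only one of its list of 7 with a value, at 155 and 190 in KO, against 356 and 279 in Cre. Of 19 genes of H3K9 methylation 4 were listed. Trim28, a corepressor, had 59.0 and 122 in KO, against 198 and 222 in Cre, and Kdm4c and Kdm3b, both demethylases, were separated lower as well. Autophagy genes were listed in 3 of 28 and housekeeping genes in 3 of 23, of which Wipi2, Eef1a1 and Rpl5 were separated lower.

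Large clustered gene families, which are mostly silent in heart, had median ratios below that of all windows. Of 1104 olfactory receptors 650 had a value, with 313 separated lower (48.2%, against 38.7% of all windows), 92 higher (14.2%, against 19.9%) and a median log2 ratio of -0.65. Of 354 vomeronasal receptors 144 had a value, with 66 lower (45.8%), 32 higher (22.2%), shares near those of all windows, and a median of -0.59 (-0.37 without the second Cre value). Clustered protocadherins, adhesion genes of neurons, were listed in 39 of 57, with 21 lower (53.8%), 3 higher (7.69%) and a median of -0.47 (-0.31 without the second KO value). On the same-median scale the medians stayed below 0, at -0.37, -0.31 and -0.18. Signal was sparse in the receptor families, at a median of 147 per kb for olfactory and 144 for vomeronasal receptors. Sparse regions were listed only with larger ratios, as given above. Members of such families are neighbours with similar sequences. Individual members went both ways: Vmn1r234 had 704 and 436 in KO, against 1277 and 1330 in Cre, while its neighbour Vmn1r235 had 824 and 871 in KO, against 439 and 550 in Cre. Pcdhac1 had 1732 and 1160 in KO, against 1847 and 2157 in Cre.

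The ratio followed the number of CG dinucleotides in the promoter. Of 16457 genes with a known start 8288 had a listed window. The median log2 ratio was -0.46 for promoters with 0 to 4 CG dinucleotides, -0.25 for 5 to 9, -0.09 for 10 to 19, -0.01 for 20 to 29 and 0.08 for 30 or more. Scaled to the same median these were -0.18, 0.02, 0.19, 0.27 and 0.36. Separated windows were 47.0% lower and 14.8% higher in the poorest class, against 26.8% lower and 31.1% higher in the richest. The share of genes with a listed window ran the other way, at 64.9% in the poorest and 33.8% in the richest class. The order held in each of 3 equal classes of signal density, with medians of -0.70 in the poorest and 0.21 in the richest promoters at low density, -0.45 and 0.34 at middle density, and -0.28 and 0.01 at high density. The printed promoters sit at the ends of this range, since 14.6% of promoters hold at least as many CG dinucleotides as Hcn4 and 4.68% as many as Irs2. Base composition can also change how DNA is recovered and amplified, and its part in the ratio was not tested.

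**Figure D5:**
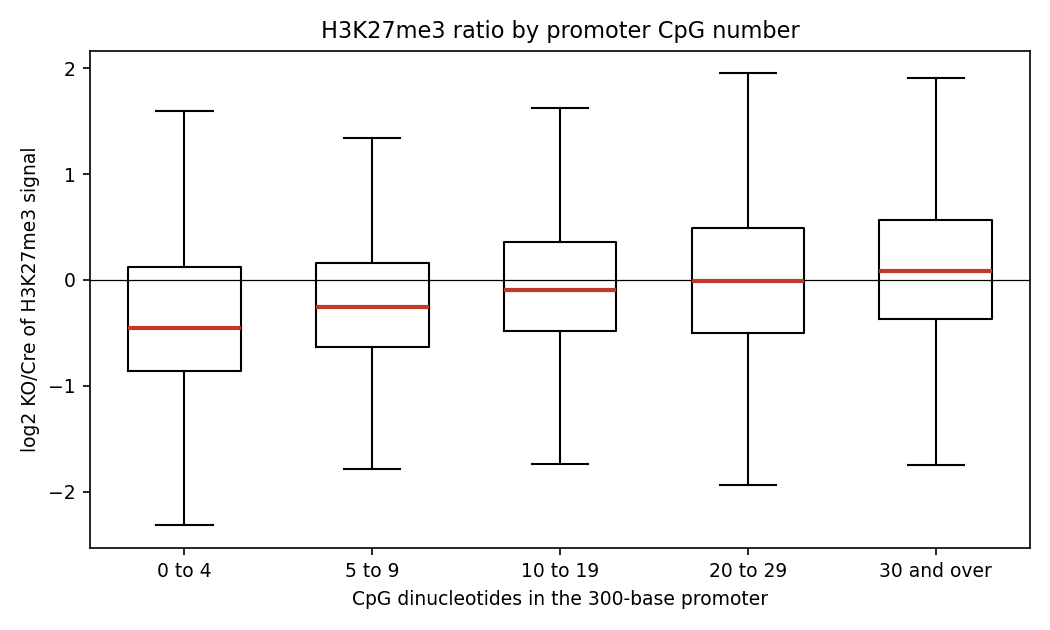
The log2 ratio of KO to Cre of H3K27me3 signal in gene windows, in 5 classes of the number of CG dinucleotides in the promoter. Red lines are medians, boxes the quartiles, and whiskers reach the last value within 1.5 times the box height. The median climbs to 0.08 in the richest class from -0.46 in the poorest, and the boxes of all classes overlap.

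Direction at H3K27me3 regions was shared in part with the other targets. Of H3K27me3 regions 52.4% touched a listed H3K9me2 region, 53.7% a G9a region and 42.8% a Mef2c region, which as shares of those lists are 38.5%, 46.0% and 41.2%. Where H3K27me3 was lower in KO, 45.1% of the touching H3K9me2 regions were lower, and where it was higher, 34.7% were, beside 39.7% of all H3K9me2 regions. For G9a these shares were 68.7% and 58.7%, beside 61.6% of all, and for Mef2c 68.7% and 56.9%, beside 61.7%. The slant was of similar size for the 3 targets and was not tested over regions.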

How the data were processed

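H3K27me3 ChIP-seq regions of mouse cardiomyocyte-enriched cells were taken from the list the authors deposited for KO against Cre. The tools named per the submitters' processing notes are BWA 0.7.10-r789 and SAMtools 1.1, with the build mm10 (GRCm38). The deposited values have another unit than counts: whole numbers in a text cell, 2 for Cre and then 2 for KO by the name of the list, without replicate numbers. Their scale, normalization, depth and region caller are not stated there, in the labels or in the list, and a further number in the cell was not used. Region lengths were multiples of 50 bp, from 350 bp.

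Ratios are log2 of (KO mean + 1)/(Cre mean + 1). Groups are called separated where the KO and Cre values did not overlap. limma 3.58.1 in R 4.3.3 was fitted (trend, log2 of value + 1, Benjamini-Hochberg at 0.05) over all regions and over all gene windows. Gene positions came from RefSeq (GRCm38.p6), without exons. The members and the 27 gene lists were chosen with earlier results of these data known. Named genes were the 10 greatest ratios (ranked with a pseudocount of 10) and 5 greatest differences in each direction, up to 4 members with the highest mean per list, cardiomyocyte markers, PRC2 genes and Ehmt2. Some genes and bins that the rule or lists cover are not reported here. Genes named beyond these were chosen after their values were seen. Alternatives tried were other pseudocounts, scalings, a mean of at least 50, other windows, single libraries left out, and chromosome 17 left out, the last added after the data were seen.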

Additional observations from a re-analysis of the deposited data

How the results depend on the processing

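The share of regions lower in KO stayed between 61.5% and 64.8% under every alternative run, against 63.2% as reported. Few listed ratios lay near 0, so scaling could turn few regions. The median log2 ratio of regions, -0.64, was -0.36 with libraries scaled to the same median, -0.33 with the same sum, and between -0.49 and -0.47 with single libraries left out. Leaving out single libraries gave between 33555 and 101595 regions at an unadjusted p under 0.05 in limma (76648 with all 4) and between 0 and 2 past the adjusted threshold (6 with all 4). That adjusted count was 14 with a pseudocount of 10, 2 with the same median, 12 with a mean of at least 50 and 1 without chromosome 17. For gene windows, single libraries left out gave between 1025 and 1926 at the unadjusted threshold (2012 with all) and 0 past the adjusted one (1 with all). The adjusted count was 8 with the same median, 7 with the same sum, 0 without chromosome 17, 0 with windows of 1 kb, 9 with windows of 5 kb and 19 with whole-region values. Windows of 5 kb gave 3369 at the unadjusted threshold. The distance difference between lower and higher regions was 4040.5 bp, and 815 bp counting all annotated genes. The cause of these shifts was not tested. Of 252 list medians under alternatives, 209 moved by less than 1 SD between libraries, as did 2060 of 2799 gene ratios. No paired analysis was possible because the listed values carry no replicate number. The lone value left in a group is assumed to vary like the others.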

Other observations

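Imprinted genes, expressed from 1 parental copy, had listed H3K27me3 in 20 of 23. Of these 6 were separated lower (30%, against 38.7% of all windows) and 5 higher (25%, against 19.9%), shares near those of all windows. Their median log2 ratio was -0.14 (0.14 on the same-median scale, 0.06 without the first Cre value). Cdkn1c, a cell cycle inhibitor, had 1475 and 2464 in KO, against 1099 and 1136 in Cre, and Phlda2, of the same imprinted domain, had 1630 and 1597 in KO, against 1288 and 1177 in Cre. Peg10 and Dlk1 stood on the other side, with Peg10 at 390 and 495 in KO, against 794 and 722 in Cre, and Dlk1 at 1345 and 1149 in KO, against 1968 and 1558 in Cre. Igf2 had the highest signal of the list, with 7230 and 6896 in KO, against 6712 and 6679 in Cre. Peg3 and Usp29 share the same listed regions and values.

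Germline genes were listed in 15 of 17. Of these 6 were separated higher (40.0%, against 19.9% of all windows) and 4 lower (26.7%, against 38.7%). Their median log2 ratio was 0.38, which was 0.13 without the second Cre value, 0.12 without the second KO value and -0.28 with windows of 5 kb. Stra8, a meiosis gene, had 829 and 832 in KO, against 759 and 583 in Cre, and Tex101, a germ cell surface protein gene, had 930 and 815 in KO, against 1492 and 1104 in Cre. Zfp zinc finger genes were listed in 141 of 391, with 53 separated lower (37.6%), 27 higher (19.1%) and a median of -0.20 (0.08 on the same-median scale), close to the 38.7%, 19.9% and -0.19 of all windows. On chromosome X, outside the regions described above, 2908 regions summed to 344474 and 353312 in KO, against 444306 and 431484 in Cre (log2 ratio -0.33).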
